A study of Mus musculus with 9 samples.

Results

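Keratins and brush border structural genes were followed across the small intestine of control and Gata4 mutant mice. The 10 genes were the keratins Krt7, Krt8, Krt18, Krt19 and Krt20, the tetraspanin Tspan8, the microvillus genes Vil1, Myo1a and Espn, and the galectin Lgals4. Every probe set annotated to exactly 1 of these symbols was taken, which gave 16 of the 45037 probe sets on the array, and no probe set was shared with another gene. Krt8 had 3 probe sets, Tspan8 had 5 and the 8 other genes had 1 each. All 16 passed the filter on low values.

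RNA of adult males aged 6 to 8 weeks was measured on 9 Affymetrix arrays, each for a single mouse. Control jejunum came from 3 Gata4loxP/+VilCre mice, mutant jejunum from 3 Gata4loxP/-VilCre mice and control ileum from 3 other Gata4loxP/+VilCre mice. Gata4 encodes a transcription factor that is normally expressed in the proximal but not the distal small intestine. All groups carried villin-Cre, in which regulatory sequence of the villin gene drives Cre recombinase in the intestinal epithelium, and 1 loxP-flanked Gata4 allele, so the genotypes differed in the second allele, wild type or null. Cells outside the epithelium are not targeted by this transgene, and the sources used here do not say which wall layers went into each RNA. Jejunum was sampled 10 cm beyond the pyloric sphincter and ileum 1 cm before the cecum.

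Simple keratins form the intermediate filaments of the intestinal epithelium. They are obligate pairs of a type I chain (Krt18, Krt19, Krt20) and a type II chain (Krt7, Krt8), and in enterocytes the filaments lie mainly beneath the apical membrane, where the terminal web anchors the actin rootlets of the microvilli. Villin, encoded by Vil1, and espin, encoded by Espn, bundle microvillar actin, and the class I myosin Myo1a links the bundle to the membrane. Galectin 4, encoded by Lgals4, is a lectin that holds together glycolipid-rich domains of the brush border, and Tspan8 encodes a tetraspanin, a membrane protein that organizes other membrane proteins into domains.

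Promoter sequence is shown for the 3 genes with the largest differences between genotypes and for the 2 in whose promoters the searched GATA motif was found. Each is the 250 bases before the annotated start site, 5′ to 3′ on the gene's own strand, from RefSeq on build GRCm38.p6: Krt7 at chr15:101412153-101412402 (plus strand), Krt18 at chr15:102027966-102028215 (plus strand), Tspan8 at chr10:115817034-115817283 (plus strand), Krt8 at chr15:102004343-102004592 (minus strand) and Krt20 at chr11:99438154-99438403 (minus strand). Capitals mark the motif, which was searched as AGATAA or TGATAA on either strand.
Krt7: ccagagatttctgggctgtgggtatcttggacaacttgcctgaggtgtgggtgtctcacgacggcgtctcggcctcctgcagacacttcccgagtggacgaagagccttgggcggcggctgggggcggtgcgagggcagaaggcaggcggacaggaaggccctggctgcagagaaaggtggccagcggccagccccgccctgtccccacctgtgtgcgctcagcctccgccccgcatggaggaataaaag
Krt18: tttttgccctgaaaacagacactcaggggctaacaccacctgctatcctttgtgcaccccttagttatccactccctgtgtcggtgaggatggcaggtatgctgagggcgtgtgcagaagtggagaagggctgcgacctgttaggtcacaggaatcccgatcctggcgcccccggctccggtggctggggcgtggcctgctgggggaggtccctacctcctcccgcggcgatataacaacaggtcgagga
Tspan8: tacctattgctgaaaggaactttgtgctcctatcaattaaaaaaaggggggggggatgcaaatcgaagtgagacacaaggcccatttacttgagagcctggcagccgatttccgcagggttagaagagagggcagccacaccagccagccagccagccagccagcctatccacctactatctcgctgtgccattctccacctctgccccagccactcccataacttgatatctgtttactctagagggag
Krt8: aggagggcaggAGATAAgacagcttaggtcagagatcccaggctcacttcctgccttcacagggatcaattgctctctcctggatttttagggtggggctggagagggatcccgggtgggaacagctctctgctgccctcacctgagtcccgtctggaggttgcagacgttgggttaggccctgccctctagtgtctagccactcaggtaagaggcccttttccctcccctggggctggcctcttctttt
Krt20: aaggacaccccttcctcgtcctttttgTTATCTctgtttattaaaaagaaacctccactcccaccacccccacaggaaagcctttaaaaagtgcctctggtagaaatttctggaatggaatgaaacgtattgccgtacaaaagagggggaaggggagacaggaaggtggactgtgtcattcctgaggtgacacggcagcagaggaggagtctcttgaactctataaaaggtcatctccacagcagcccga

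The RefSeq promoter table held 11 promoters of 9 of the 10 genes, and Krt19 was not among them. The motif stood in the promoters of 2 genes, Krt8, where it began 239 bases before the start site, and Krt20, where it began 223 bases before it and was read as TTATCT, on the opposite strand. Of all 32841 promoters in the table, 16.6% held it. Neither Krt8 nor Krt20 passed the test between mutant and control jejunum by the probe set that stood for it. A match is a description of the letters and not a site of binding, and the windows of Krt7, Krt18 and Tspan8 lack these letters within the 250 bases. The related letters AGATAG and TGATAG were not searched. The Tspan8 window holds both on the opposite strand, as CTATCT and CTATCA, and the windows of Vil1 and Myo1a hold CTATCT. The search therefore does not show that a window lacks every GATA motif. In the RefSeq order of coding genes Krt8 and Krt18 were direct neighbours on chromosome 15, with Krt7 elsewhere on chromosome 15 between Krt80 and Krt87. Krt19 and Krt20 lay on chromosome 11, Tspan8 and Myo1a on chromosome 10, Vil1 on chromosome 1, Espn on chromosome 4 and Lgals4 on chromosome 7.

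Values are log2(intensity + 16) after quantile normalization, called normalized log2 intensity below, and a gene with several probe sets is represented by the brightest. Differences were tested in limma over all 9 arrays, with Benjamini-Hochberg adjustment over 29307 probe sets and a call at an adjusted p under 0.05. The trimmed mean intensity ran from 147 to 180 on the 6 jejunum arrays and from 96.8 to 122 on the ileum arrays. Spike-in controls, which are not tissue RNA, were dimmer on the ileum arrays too. Their geometric means were 805 to 1013 there and 1435 to 1783 on the jejunum arrays. The cause of the dimmer ileum arrays was not tested, and brightness and segment cannot be told apart in comparisons with ileum. The segments matched their labels: the proximal enzyme lactase (Lct) had a mean normalized log2 intensity of 12.96 in control jejunum and 4.80 in control ileum, and the ileal bile acid binding protein Fabp6 had 4.84 and 13.74. In mutant jejunum Lct had 8.85 and Fabp6 13.90. The brighter Gata4 probe set read 9.57, 9.49 and 9.52 in control jejunum and 9.61, 9.51 and 9.38 in mutant jejunum. The sources used here do not place it relative to the deleted part, so it does not check the genotype. The mean over 13 general epithelial genes was 10.80 to 10.87 in control jejunum, 10.85 to 11.04 in mutant jejunum and 11.08 to 11.17 in control ileum.

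Krt7, Krt18, Krt19 and Tspan8 rose in the mutant jejunum, by 1.26 to 2.02 times. The Krt19 call was close to the threshold (adjusted p = 0.0492 in limma) and was lost in 18 of 23 other settings. Each of the 4 genes was also higher in control ileum than in control jejunum, by 1.48 to 2.56 times. Krt8, Krt20, Vil1, Myo1a, Espn and Lgals4 did not pass the test in either comparison by the probe set that stood for the gene. Thus 4 of 10 genes were called higher and 0 lower in mutant jejunum, where 4.39% of 13830 genes were called in either direction, 2.1% higher and 2.29% lower. Between control ileum and control jejunum 4 of 10 were again higher and 0 lower, where 17.9% of genes were called, 8.79% higher and 9.12% lower. The 10 genes were chosen with earlier results of these data known, so neither share is a test against all genes. On unscaled values 2 genes were higher in ileum, Krt18 and Tspan8, and 2 lower, Krt20 and Vil1. Of 29621 probe sets tested on unscaled values, 619 were higher in ileum and 10013 lower, with a median difference of −0.40. On normalized values the median difference of the 10 genes was 0.10 on the log2 scale in the mutant and 0.15 in ileum, against 0.00 and 0.03 over all genes tested. For the 13 general epithelial genes it was larger, at 0.17 and 0.32. The comparisons share their control jejunum arrays, so values that agree between them are not independent of each other. The labels name a gut segment and no sorted cell type, so fewer cells of a type and less RNA per cell cannot be told apart.

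**Figure D1:**
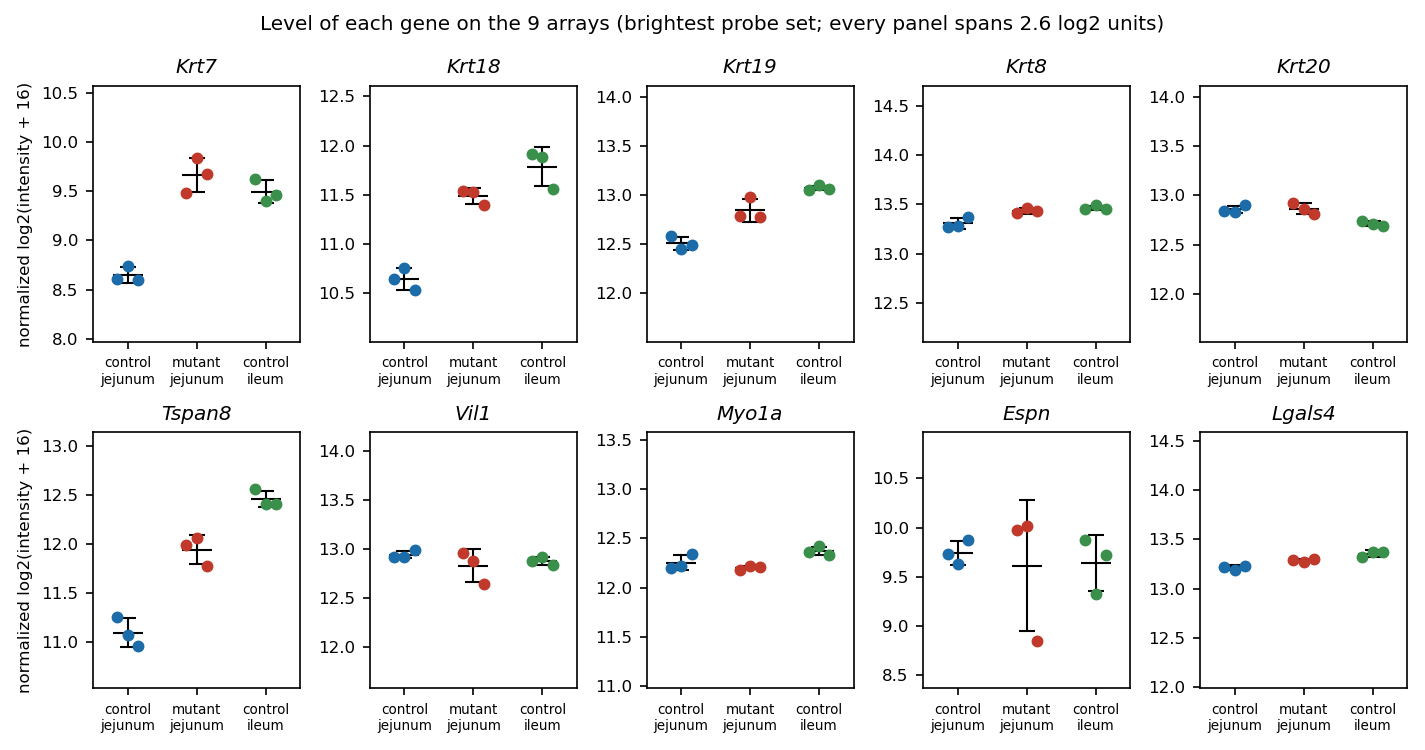
Normalized log2 intensity of each of the 10 genes by its brightest probe set on each of the 9 arrays, with 1 point per mouse and bars at the group mean ± SD (n = 3). The mutant and ileum points of Krt7, Krt18, Krt19 and Tspan8 lie above all 3 control jejunum points, and the mutant points of Vil1 and Espn spread down to 12.65 and 8.84.

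Krt7 encodes a type II keratin found in ductal and other simple epithelia. Its normalized log2 intensity (probe set 1423952_a_at) was 8.61, 8.74 and 8.60 in control jejunum, 9.48, 9.83 and 9.67 in mutant jejunum and 9.62, 9.40 and 9.46 in control ileum. All 3 mutant arrays and all 3 ileum arrays lay above the control jejunum arrays, and the mutant and ileum arrays overlapped. The mutant mean was 9.66 ± 0.18 and the control mean 8.65 ± 0.08 (SD, n = 3), a rise of 1.01 on the log2 scale (SE 0.13, 95% interval 0.74 to 1.29, 2.02-fold, adjusted p = 0.00133 in limma). In ileum it was higher than in control jejunum by 0.84 (1.80-fold, adjusted p = 0.00121 in limma), a call that did not hold on unscaled values, where the difference was 0.31 with an adjusted p of 0.170. Mutant jejunum minus control ileum was 0.17 (95% interval −0.11 to 0.45, adjusted p = 0.560). These and all further intervals are limma's and are not adjusted for the number of probe sets.

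Krt18, the type I partner of Krt8, read 10.65, 10.76 and 10.53 in control jejunum, 11.54, 11.52 and 11.40 in mutant jejunum and 11.91, 11.88 and 11.56 in control ileum (probe set 1448169_at). The control jejunum arrays lay below all others, and every mutant array lay below every ileum array. Krt18 rose by 0.84 in mutant jejunum (SE 0.12, 95% interval 0.59 to 1.10, 1.79-fold, adjusted p = 0.00271 in limma). It was higher in ileum than in control jejunum by 1.14 (95% interval 0.88 to 1.39, 2.20-fold, adjusted p = 0.000105 in limma). The mutant minus ileum difference of −0.30 did not pass the test (95% interval −0.55 to −0.04, adjusted p = 0.230) and was 0.32 on unscaled values.

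Krt19, a small type I keratin of simple epithelia, read 12.58, 12.45 and 12.49 in control jejunum, 12.78, 12.98 and 12.77 in mutant jejunum and 13.05, 13.10 and 13.06 in control ileum (probe set 1417156_at). The 3 groups did not overlap. Its rise of 0.34 in mutant jejunum was small and close to the threshold (SE 0.08, 95% interval 0.16 to 0.52, 1.26-fold, adjusted p = 0.0492 in limma), and the call was lost in 18 of 23 other settings, with adjusted p values of 0.0118 to 0.325 over the 23. Leaving out any 1 array lost it, except mutant jejunum 3. The ileum difference was 0.56 (95% interval 0.38 to 0.74, 1.48-fold, adjusted p = 0.00112 in limma), which fell to 0.17 on unscaled values, with an adjusted p of 0.389. Mutant minus ileum was −0.22 (95% interval −0.41 to −0.04, adjusted p = 0.203), and 0.23 on unscaled values.

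Krt8 encodes the main type II keratin of simple epithelia. Its brightest probe set (1420647_a_at) read 13.27, 13.28 and 13.37 in control jejunum, 13.41, 13.47 and 13.43 in mutant jejunum and 13.46, 13.49 and 13.45 in control ileum. The mutant and ileum arrays lay above the control jejunum arrays by narrow margins. The mutant difference was 0.13 (95% interval −0.02 to 0.27, adjusted p = 0.370) and the ileum difference 0.16 (95% interval 0.01 to 0.30, adjusted p = 0.133), the latter −0.15 on unscaled values. The other 2 probe sets, which by their suffix may also bind related transcripts, gave 0.22 (1423691_x_at, adjusted p = 0.172) and 0.13 (1435989_x_at, adjusted p = 0.355) in the mutant. In ileum they passed the test, at 0.29 (adjusted p = 0.0271 in limma) and 0.23 (adjusted p = 0.0433 in limma), whereas on unscaled values both lay below 0, at −0.053 and −0.14. All 3 lay near the top of the normalized scale, at 13.90, where an array may compress differences, and the file holds no saturation flag.

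Krt20, a type I keratin of differentiated villus cells, read 12.85, 12.83 and 12.90 in control jejunum, 12.92, 12.87 and 12.81 in mutant jejunum and 12.74, 12.71 and 12.69 in control ileum (probe set 1426284_at). The mutant and control jejunum arrays overlapped and the ileum arrays lay below both. Mutant minus control jejunum was 0.01 (95% interval −0.15 to 0.17, adjusted p = 0.978). Ileum minus control jejunum was −0.15 (95% interval −0.31 to 0.01, adjusted p = 0.186). On unscaled values the ileum difference was −0.54 with an adjusted p of 0.0123, where the median over all probe sets was −0.40.

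Tspan8 was measured by 5 probe sets. The brightest (1424649_a_at) read 11.26, 11.08 and 10.96 in control jejunum, 11.99, 12.06 and 11.78 in mutant jejunum and 12.55, 12.41 and 12.41 in control ileum. The 3 groups did not overlap, with mutant jejunum between both control segments. It rose by 0.84 in the mutant (SE 0.11, 95% interval 0.60 to 1.08, 1.79-fold, adjusted p = 0.00177 in limma) and was higher in ileum than in control jejunum by 1.36 (95% interval 1.12 to 1.60, 2.56-fold, adjusted p = 1.96e-05 in limma). It was the 1 gene of the 10 called between mutant jejunum and control ileum, at −0.52 (95% interval −0.76 to −0.28, adjusted p = 0.0338 in limma), and on unscaled values its sign turned, to 0.032. In 14 of the 22 remaining settings the call was lost, among them each that left out a mutant jejunum array, a control ileum array or control jejunum 2. In that comparison 0 genes were higher and 1 was lower, against 3.67% of all genes called, 1.97% higher and 1.7% lower, and the median over the 10 genes was −0.06.

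The dimmer Tspan8 probe sets did not all follow the brightest. Probe set 1420018_s_at rose in the mutant by 1.07 (adjusted p = 0.0488 in limma), a call lost in 12 of 22 other settings, and was higher in ileum by 1.60 (adjusted p = 0.0021 in limma). Its mutant arrays read 7.81, 7.96 and 6.87 and its control jejunum arrays 6.49, 6.66 and 6.27, so mutant jejunum 3 lay closest to the controls. Probe set 1420017_at gave 0.75 in the mutant (adjusted p = 0.103; 1.01 and 0.0184 without mutant jejunum 3) and was higher in ileum by 1.19 (adjusted p = 0.0051 in limma). Probe set 1420019_at gave 0.28 and 0.40 (adjusted p = 0.551 and 0.222), and 1455709_at, the dimmest, gave 0.14 and −0.01 (adjusted p = 0.887 and 0.987). The mean of all 5 gave a rise of 0.62 in the mutant, which still passed the test (adjusted p = 0.0234 in limma).

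Vil1 read 12.92, 12.92 and 12.99 in control jejunum, 12.96, 12.88 and 12.65 in mutant jejunum and 12.88, 12.92 and 12.84 in control ileum (probe set 1448837_at). The groups overlapped, and mutant jejunum 3 was the lowest of the 9 arrays. The mutant difference was −0.11 (95% interval −0.31 to 0.09, adjusted p = 0.579), which leaves a change of either sign within that interval possible. The ileum difference was −0.06 (95% interval −0.26 to 0.13, adjusted p = 0.672), and −0.45 on unscaled values with an adjusted p of 0.0409. The Vil1 gene also supplies the regulatory sequence of the Cre transgene in all 9 mice.

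Myo1a read 12.20, 12.22 and 12.34 in control jejunum, 12.18, 12.22 and 12.21 in mutant jejunum and 12.37, 12.42 and 12.33 in control ileum (probe set 1429805_at). Control and mutant jejunum overlapped, and the mutant difference was −0.05 (95% interval −0.22 to 0.12, adjusted p = 0.808). The ileum difference was 0.12 (95% interval −0.05 to 0.29, adjusted p = 0.339), and −0.35 on unscaled values. On normalized values the mutant arrays all lay below the ileum arrays, with a difference of −0.17 (95% interval −0.34 to 0.0035, adjusted p = 0.318), which was 0.39 on unscaled values.

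Espn had the widest interval of the 10 genes. Its mutant arrays read 9.98, 10.02 and 8.84, against 9.73, 9.63 and 9.87 in control jejunum and 9.87, 9.33 and 9.72 in ileum (probe set 1423005_a_at). Mutant jejunum 1 and 2 lay above every control array and mutant jejunum 3 below every one. The mutant difference of −0.13 had a 95% interval of −0.73 to 0.47 (adjusted p = 0.865), and without mutant jejunum 3 it was 0.25. Mutant jejunum 3 had the lowest array weight of the 9, at 0.384.

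Lgals4 read 13.22, 13.19 and 13.23 in control jejunum, 13.29, 13.27 and 13.30 in mutant jejunum and 13.32, 13.38 and 13.38 in control ileum (probe set 1451336_at). The groups did not overlap, but the differences were small: 0.07 in the mutant (95% interval −0.07 to 0.21, adjusted p = 0.642) and 0.14 in ileum (95% interval −0.0027 to 0.28, adjusted p = 0.169). On unscaled values the ileum difference was −0.21. Separation of the 3 arrays on each side was common on these arrays. In mutant against control jejunum it was seen in 6 of the 10 genes and 25% of all genes, in ileum against control jejunum in 8 of 10 and 40.1%, and in mutant jejunum against ileum in 6 of 10 and 22.6%.

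**Figure D2:**
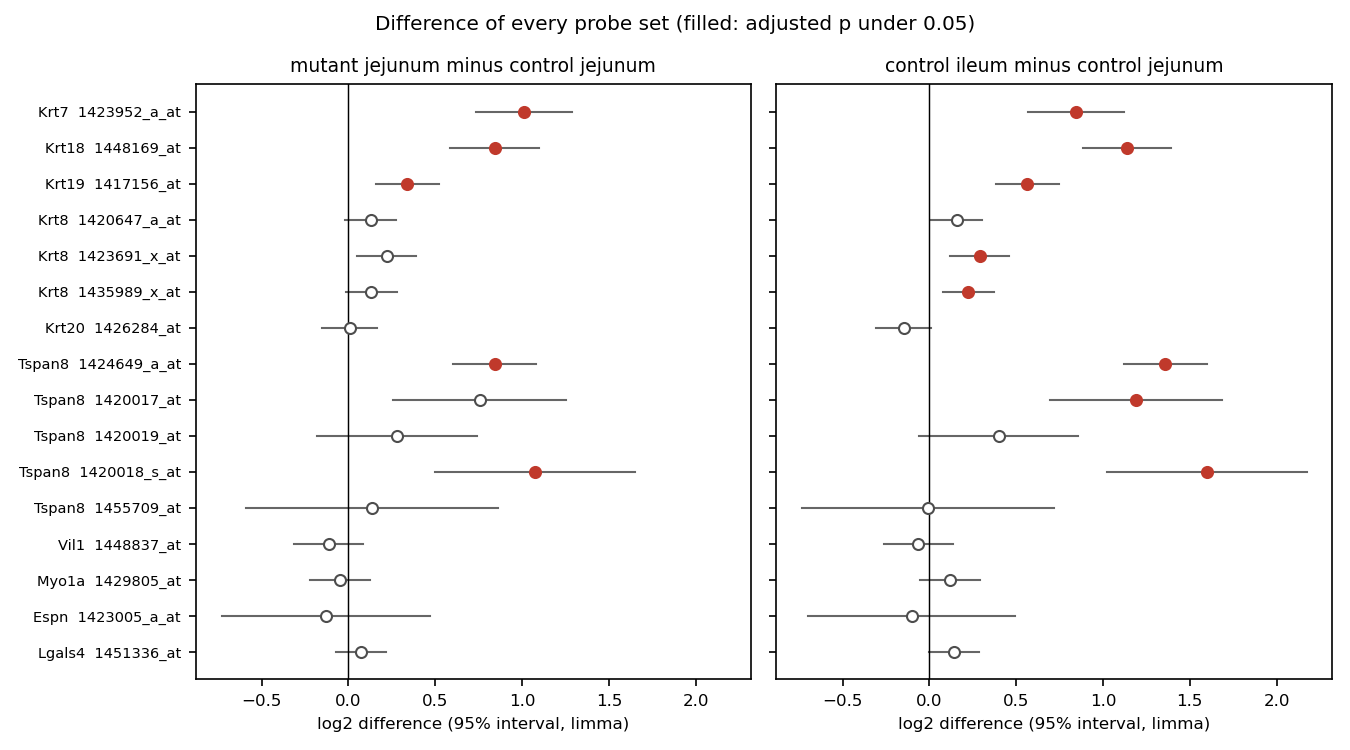
Log2 difference with its 95% limma interval for all 16 probe sets of the 10 genes, for mutant jejunum (left) and control ileum (right) against control jejunum (filled where the adjusted p was under 0.05, n = 3 per group). In mutant against control jejunum the filled points are those of Krt7, Krt18, Krt19 and 2 of the 5 Tspan8 probe sets, between 0.34 and 1.07.

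A brightness factor shared by a whole array cancels in a ratio within that array, though quantile normalization can alter such a ratio, so each gene was set against Vil1, and Krt18 against Krt8, on unscaled log2 values, relative to the control jejunum mean. For Krt18 over Krt8 the control jejunum arrays read 0.06, 0.07 and −0.14, the mutant arrays 0.89, 0.85 and 0.53, and the ileum arrays 0.91, 0.85 and 0.46. Control jejunum did not overlap with either other group. The Krt8 probe set lies near the top of the scale, where an array may compress differences. Whether the partner chains changed unequally was not tested. For Krt7 over Vil1 the mutant arrays read 0.86, 1.27 and 1.20 and the ileum arrays 0.89, 0.68 and 0.71, against −0.02, 0.10 and −0.09 in control jejunum. Tspan8 over Vil1 read 0.92, 1.05 and 0.83 in the mutant and 1.44, 1.25 and 1.27 in ileum, against 0.17, −0.05 and −0.13.

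Krt18 over Vil1 was between 0.92 and 0.97 in the mutant and 0.78 and 1.21 in ileum. Krt19 over Vil1 was between 0.23 and 0.59 in the mutant and 0.60 and 0.67 in ileum. Krt20 over Krt19, both type I keratins, read −0.18, −0.40 and −0.28 in the mutant and −0.69, −0.71 and −0.75 in ileum. Genes that were not called also had all mutant and ileum ratios to Vil1 above 0: Krt8 read 0.049, 0.12 and 0.39 in the mutant and 0.30, 0.27 and 0.32 in ileum, and Lgals4 read 0.015, 0.11 and 0.35 in the mutant and 0.23, 0.18 and 0.31 in ileum. The mean ratios to Vil1 equal the differences of the setting with arrays aligned on Vil1, and repeat that setting. It was chosen after seeing the data. Between mutant and control jejunum its limma test gave adjusted p = 0.000964 for Krt7, 0.00148 for Krt18, 0.000914 for Tspan8 and 0.0529 for Krt19. Krt8 and Lgals4 did not pass it (adjusted p = 0.415 and 0.518). The ratios between keratins were not tested. With 3 arrays on each side an exact permutation test has 0.10 as its smallest p.

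**Figure D3:**
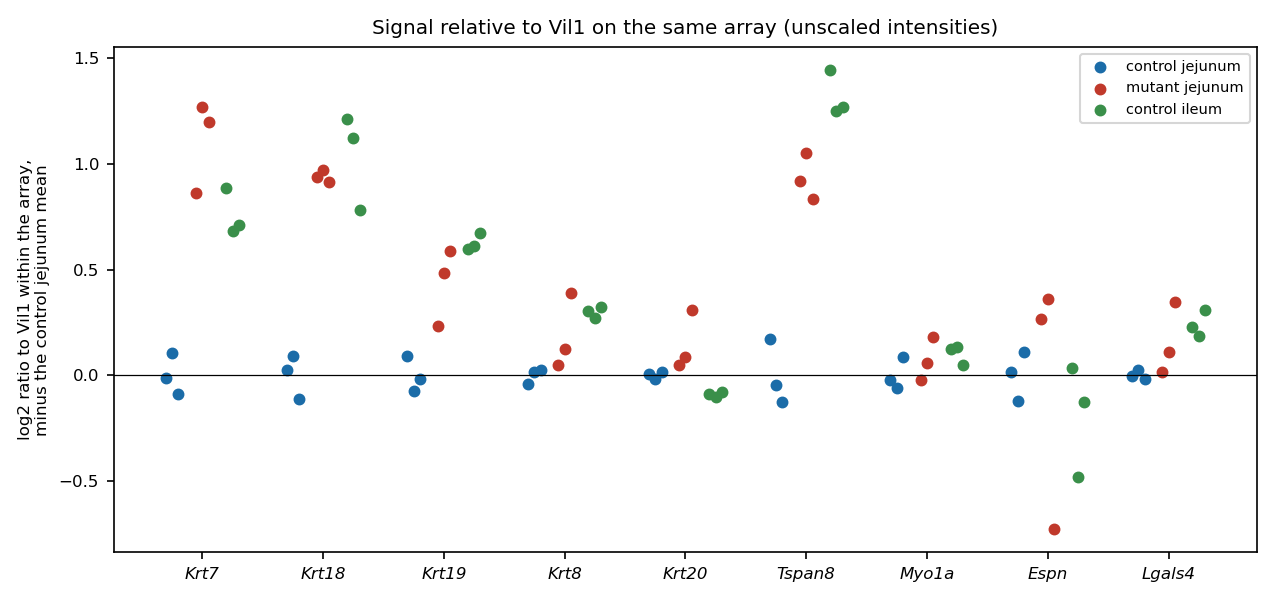
Log2 ratio to Vil1 within each array on unscaled values, relative to the control jejunum mean, with 1 point per mouse. All mutant and ileum points of Krt7, Krt18, Krt19 and Tspan8 lie above 0, as do those of Krt8 and Lgals4 (up to 0.39 and 0.35, both on mutant jejunum 3), whereas Espn in mutant jejunum runs from −0.73 to 0.36.

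Between mutant and control jejunum, Krt7, Krt18 and Tspan8 kept their calls in all 23 other settings, with log2 differences of 0.88 to 1.12, 0.71 to 0.96 and 0.62 to 0.95. Several settings can change the spread or the adjustment but not this difference. They are the other filters, no intensity trend, a fit of the 2 groups alone, the replicate block and leaving out an ileum array. The mean of all probe sets cannot change it for Krt7 and Krt18, with 1 probe set each. Aligning the arrays on the mean of the 13 general epithelial genes, a setting chosen after seeing the data, gave 0.88 for Krt7 (adjusted p = 0.00399), 0.71 for Krt18 (adjusted p = 0.00754), 0.70 for Tspan8 (adjusted p = 0.00416) and 0.20 for Krt19 (adjusted p = 0.325).

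**Figure D4:**
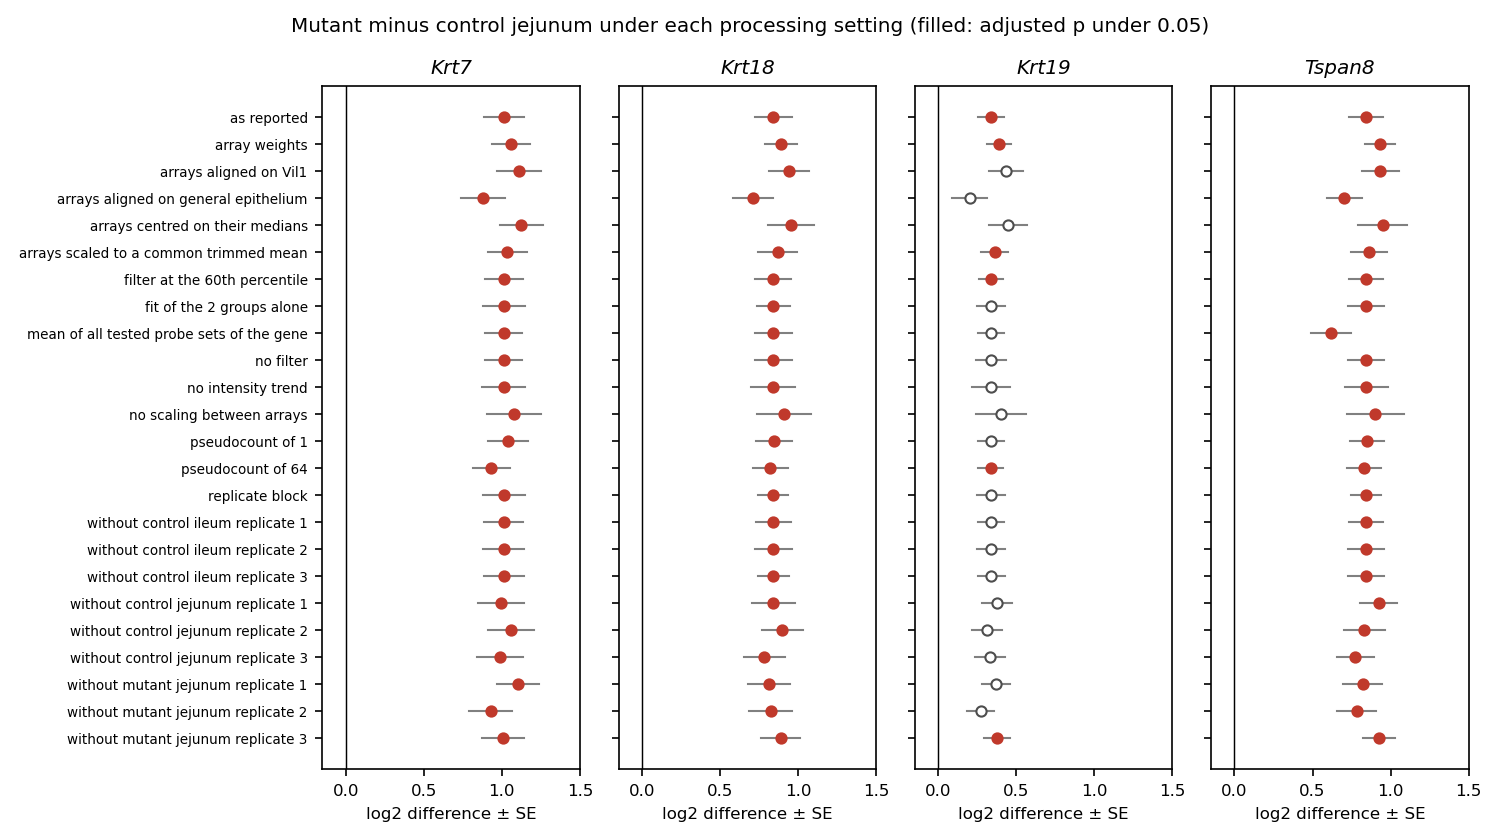
Log2 difference between mutant and control jejunum with its SE for Krt7, Krt18, Krt19 and Tspan8 under the reported setting and 23 others (filled where the adjusted p was under 0.05). Krt7, Krt18 and Tspan8 are filled throughout and Krt19 in 5 of the 23.

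Other genes of the same structures were read from lists. Over all genes 2.1% were called higher and 2.29% lower in the mutant, and 8.79% and 9.12% in ileum. Of 17 other keratins and plakins tested, 0 were called in the mutant (median 0.09) and 1 was higher in ileum, Evpl, which encodes envoplakin, a linker of keratin filaments to desmosomes (0.84, adjusted p = 0.0188 in limma). By name, 22 other keratin genes were tested. The 1 called was the hair keratin Krt84, named here after its values were seen, which read 5.04, 4.68 and 4.25 in control jejunum, 5.59, 6.10 and 5.65 in mutant jejunum and 6.64, 6.25 and 6.16 in ileum. It passed the filter, at 4.95, mainly through the groups in which it was brighter, so no test is given for it.

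Of 20 genes of the microvillus core and its membrane link, 1 rose in the mutant and 0 fell, with a median of 0.12. This is close to the share over all genes, of which 4.39% were called, 2.1% higher and 2.29% lower. The 1 that rose was Baiap2l1, which encodes an I-BAR protein that couples membrane to actin. It went from 9.10 ± 0.22 to 10.04 ± 0.17 (0.94, adjusted p = 0.00817 in limma) and stood at 10.05 ± 0.23 in ileum. In ileum 5 were higher and 0 lower than in control jejunum, against 8.79% higher and 9.12% lower over all genes. Among the 5 were Baiap2l1 (0.95, adjusted p = 0.00229 in limma) and the class I myosin Myo1d (0.79, adjusted p = 0.00222 in limma), both calls that were lost on unscaled values. Myo1d gave 0.13 in the mutant (adjusted p = 0.673) and was lower there than in ileum by −0.66 (adjusted p = 0.0262 in limma).

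The intermicrovillar adhesion complex links the tips of neighbouring microvilli. All 6 of its tested genes had values below 0 in the mutant, with a median of −0.19, and 0 were called. Without mutant jejunum 3, a setting chosen after seeing the data, 5 were below 0 and 1 above (Cdhr5, 0.033), and the median was −0.069. Its motor Myo7b read −0.51 (adjusted p = 0.0784) in the mutant and was lower in ileum than in control jejunum by −0.63 (adjusted p = 0.0127 in limma). Of 15 terminal web and apical trafficking genes, 0 were called in the mutant (median 0.00) and 4 were higher in ileum, where 8.79% of all genes were. The 4 were led by the tropomyosin Tpm1 (0.71, adjusted p = 0.00124 in limma) and the actin crosslinker Actn1 (0.65, adjusted p = 0.0232 in limma). Smooth muscle also contains tropomyosin and alpha-actinin, and its genes moved in the same comparison: 7 of 8 were higher in ileum (median 1.04), with summed unlogged levels of 6258 to 9218 in control jejunum and 12624 to 16147 in ileum, and their part in the Tpm1 and Actn1 values was not tested. In the mutant the smooth muscle sum was 5401 to 8313, and 0 of 8 were called.

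Tetraspanins other than Tspan8 changed in both directions in the mutant: 3 of 17 rose, 1 fell and the median was 0.25. Over all genes 2.1% were called higher in the mutant and 2.29% lower. Tspan1, an epithelial tetraspanin, went from 8.00 ± 0.14 to 10.41 ± 0.24 (2.41, adjusted p = 6.57e-05 in limma) and stood at 11.37 ± 0.37 in ileum. Tspan12, known as a co-receptor in Norrin signalling, went from 6.73 ± 0.09 to 8.09 ± 0.23 (1.36, adjusted p = 0.00255 in limma), against 7.41 ± 0.34 in ileum. Cd9, a widely expressed tetraspanin, rose by 1.34 (adjusted p = 0.000327 in limma). Cd81, a partner of many membrane receptors, fell by 0.79 (adjusted p = 0.00313 in limma) and had a mean of 10.10 in both mutant jejunum and ileum, against 10.89 in control jejunum. In ileum 4 tetraspanins were higher and 2 lower than in control jejunum, against 8.79% higher and 9.12% lower over all genes. Tspan1 (3.37) and Cd9 (2.20) were the furthest apart. Both were lower in mutant jejunum than in ileum, by −0.96 (adjusted p = 0.0235 in limma) and −0.86 (adjusted p = 0.00991 in limma), calls that were lost on unscaled values.

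Of 6 other galectins, 0 were called in the mutant (median 0.24) and 1 was higher in ileum, Lgals1, a galectin abundant in stroma (0.82, adjusted p = 0.0181 in limma). Of the 13 general epithelial genes, 0 were called in the mutant (median 0.17), whereas 6 were higher in ileum and 0 lower (median 0.32), led by the transcription factor genes Cdx1 (0.92, adjusted p = 0.00121 in limma) and Elf3 (0.80, adjusted p = 0.0248 in limma). For both lists the shares over all genes in ileum were 8.79% higher and 9.12% lower.

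**Figure D5:**
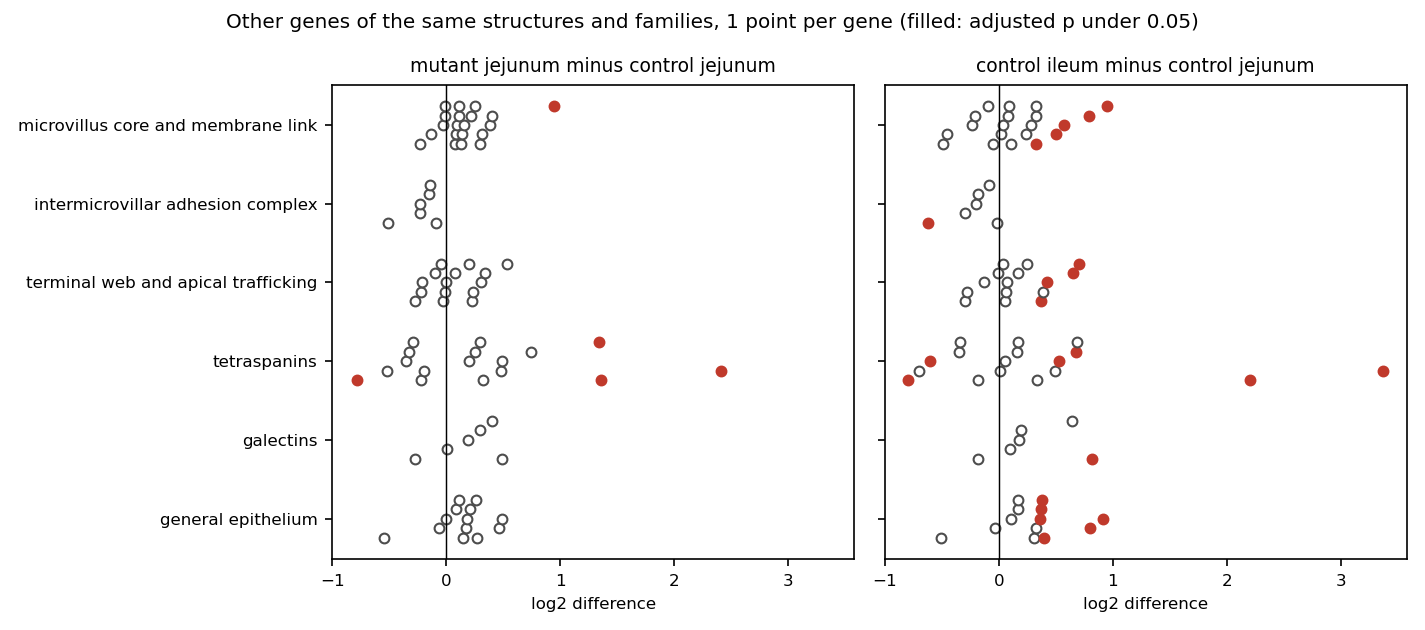
Log2 difference of each tested gene in 6 lists of related genes, by its brightest probe set, for mutant against control jejunum (left) and control ileum against control jejunum (right), filled where the adjusted p was under 0.05. In the mutant 1 of 20 microvillus genes and 4 of 17 tetraspanins are filled, against 4.39% of all genes called. All 6 points of the intermicrovillar complex lie left of 0 in both panels (in the mutant 5 of 6 without mutant jejunum 3).

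Keratins and Tspan8 are also expressed by other epithelia and cell types, so their markers were read on the same arrays. Of 6 tuft cell genes tested, 0 were called in the mutant (median 0.69). The summed level of the 7 on the array, which include the untested Il25, was 197 to 308 in control jejunum, 224 to 796 in mutant jejunum and 202 to 608 in ileum. Mesothelial genes, 4 tested of 5 with Wt1 below the filter, had 0 calls, and all 5 together had sums of 184 to 258, 211 to 366 and 221 to 283. Pancreatic acinar genes, 4 tested of 8, had 0 calls, and the 7 on the array had sums of 301 to 333, 277 to 406 and 263 to 303. Of 7 goblet cell genes 1 rose in the mutant, the secretory transcription factor gene Spdef, close to the threshold (0.59, adjusted p = 0.0472 in limma). Over all genes 2.1% were higher in the mutant. In ileum 3 were higher and 1 lower, Fcgbp, a component of mucus (−0.43, adjusted p = 0.0162 in limma), against 8.79% and 9.12% of all genes. The goblet cell sums were 42380 to 43394 in control jejunum, 42270 to 48900 in the mutant and 47354 to 51004 in ileum. The part of these cell types in the keratin and Tspan8 differences was not tested.

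For each of the 4 genes called in the mutant, the genes with the most similar pattern were those with the smallest root mean square log2 difference over the 9 arrays, each centred on its control jejunum mean. For Krt7 they were Sdc1 at 0.132, Acsm3 at 0.150 and Nostrin at 0.161. For Krt18 they were Pla2g10 at 0.122, Smox at 0.130 and Bspry at 0.144. For Krt19 they were Cdkl2 at 0.0675, Gnb2 at 0.0698 and Cpne3 at 0.0698, and for Tspan8 they were Asah1 at 0.126, Ola1 at 0.153 and Gp1bb at 0.154. Those of Krt19 were not called in the mutant (adjusted p = 0.272, 0.109 and 0.152 in limma), whereas those of Krt7, Krt18 and Tspan8 all were. Krt19 itself differed least of the 4 between genotypes, so its smaller values do not show a closer likeness. The 9 arrays share their animals between all genes, so the measure describes likeness on these arrays alone.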

How the data were processed

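RNA of 9 mice was measured on Affymetrix mouse arrays, in 3 groups of 3 taken from the sample titles. GCOS, the Affymetrix array software, produced the intensities that the authors deposited, per the submitters' processing notes. The sources used here give no GCOS settings, scan dates or batches. The deposited table holds 1 linear intensity per probe set and array. Trimmed means differed between arrays, so the values were not on a common scale.

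Of 45101 probe sets, 64 controls were left out. Values were taken as log2(intensity + 16), quantile normalized, and kept where at least 3 arrays exceeded the 40th percentile (4.95). Tests were run in limma 3.58.1 under R 4.3.3 (lmFit over 9 arrays, eBayes with an intensity trend, two-sided, adjusted by Benjamini-Hochberg), and were tested on simulated data. Fold changes are on this log2 scale and understate changes of dim probe sets. The number of arrays limits the precision. Probe sets were named from the platform annotation given: 34945 had 1 gene, 932 several and 9160 none. Entrez identifiers matched RefSeq for 34741.

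The members and lists were chosen with earlier results of these data known. Named genes were all 10 members, at most the 2 largest rises and 2 largest falls per list and comparison among calls whose groups did not overlap, the 3 genes most like each member called in the mutant, Gata4 and segment markers. Unscaled values, other scalings, pseudocounts, filters and fits, the replicate number as a block and leaving out each array were tried. Lists not described otherwise had 0 calls in the mutant: stroma (8 tested, 1 higher in ileum), T cells (6, 3 lower in ileum), B and plasma cells (4, 2 lower in ileum), myeloid cells (6, 2 lower in ileum), crypt and cell cycle (9, 0 called in ileum) and blood (1, 0 called in ileum). Over all genes 2.1% were called higher and 2.29% lower in the mutant, and 8.79% and 9.12% in ileum. The segment lists had 8 tested genes each: 4 proximal genes were called lower and 8 distal genes higher in the mutant. The distal genes Fabp6, Slc10a2 and Fgf15 had control jejunum means of 4.84, 4.34 and 4.13, below the filter threshold. They passed the filter mainly through the groups in which they were brighter, so their calls are not tests of a rise.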

Additional observations from a re-analysis of the deposited data

How the results depend on the processing

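Between mutant and control jejunum, Krt7, Krt18 and Tspan8 by its brightest probe set kept direction and call under all 23 alternatives, and the number of the 10 genes called was 3 or 4 throughout, with Krt19 the gene lost. Several of the alternatives change only the spread or the adjustment and cannot change the difference. Leaving out each array gave 3 to 4 called genes in that comparison, 4 to 4 in ileum against control jejunum and 0 to 1 in mutant jejunum against ileum. The single call in mutant jejunum against ileum, Tspan8, was lost (0 genes called) with arrays aligned on general epithelium or on Vil1 (both chosen after seeing the data), median centring, a fit of the 2 groups alone, the mean of all probe sets of a gene, no filter, or no intensity trend, and without any of the 3 ileum arrays, any of the 3 mutant arrays or control jejunum 2. With no scaling it was replaced by 2 others, Krt7 (0.77, adjusted p = 0.00873) and Krt20 (0.66, adjusted p = 0.00846). With no scaling, 2 of the 10 genes were higher in ileum than in control jejunum (Krt18 and Tspan8) and 2 lower (Krt20 and Vil1). With a trimmed-mean scaling 6 of the 10 genes were higher in ileum.

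With no scaling between arrays the signs of 8 of the 10 genes turned in mutant jejunum minus ileum, of 3 in ileum minus control jejunum (Krt8, Lgals4 and Myo1a) and of 1, Myo1a, in mutant minus control jejunum (0.041). Among values called under either setting these turned: Tspan8 (1424649_a_at) at 0.032 and Baiap2l1 at 0.61 in mutant jejunum minus ileum, and Krt8 at −0.053 (1423691_x_at) and −0.14 (1435989_x_at) in ileum minus control jejunum. The median over all probe sets there was −0.40 in ileum minus control jejunum and 0.41 in mutant minus ileum, as the ileum arrays were dimmer. Probe sets called between ileum and control jejunum numbered 4752, and 10632 (619 higher, 10013 lower) with no scaling; between mutant jejunum and ileum 778, and 1680 with array weights, 1184 (936 higher, 248 lower) with median centring, 332 in a fit of the 2 groups alone and 8497 (8349 higher, 148 lower) with no scaling; between mutant and control jejunum 1044, and 1998 with array weights and 659 with no scaling. Other scalings moved the split of calls, from 511 higher and 533 lower between mutant and control jejunum to 523 and 320 with median centring and 285 and 1174 with alignment on general epithelium (median over all probe sets −0.20), from 2449 and 2303 between ileum and control jejunum to 1543 and 2665 and to 921 and 4010 (median −0.17), and from 406 and 372 between mutant and ileum to 652 and 278 with alignment on Vil1 and 548 and 249 on general epithelium. Leaving out each array gave 406 to 987 (mutant against control jejunum), 2870 to 5955 (ileum against control jejunum) and 200 to 1042 (mutant against ileum).

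The groups share replicate numbers in the labels, but correlations of same-numbered arrays ran from −0.0727 to 0.165, so the numbers were not taken as pairs. With the replicate number as a block, 3, 4 and 1 of the 10 genes were called (mutant against control jejunum, ileum against control jejunum, mutant against ileum), and 941, 4585 and 677 probe sets. The cause of the changes under other settings was not tested. All groups hold 3 arrays, and the brightest members sit near the top of the scale, which limits small differences there.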
